A study of Mus musculus with 18 samples.

Results

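The genes described here are Ehf and 9 other regulators of epithelial gene expression, Elf3, Elf5, Grhl1, Grhl2, Grhl3, Klf5, Ovol1, Esrp1 and Esrp2, which make 10 of the 24421 genes listed in the count table. They were found by symbol. Ehf was chosen by its measured difference between untreated resistant and untreated parental cells, where it stood at 0 counts in the parental cells, and the other genes were chosen as named regulators of epithelia with those results known. Comparisons of untreated resistant with untreated 4T1 cells are therefore given as a description, and so are comparisons of Ehf that use the untreated resistant libraries. Nothing is concluded from how many members pass a threshold there.

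Total RNA was sequenced from 4T1, a mouse mammary carcinoma line labelled as wild type and of strain BALB/cfC3H, and from 2 resistant populations, 4T1R1 and 4T1R2, which survived the HSP90 inhibitor 17-DMAG, according to the sample records through rounds of exposure. All 3 were grown without drug or with 1.5 µM 17-DMAG, in 3 libraries per group and 18 in all. The sample records state 48 h of exposure and the series text states 2 h, so the duration behind the treated groups is uncertain, and the 2 sources also differ on how the resistant cells were selected. 4T1R1 and 4T1R2 are selected populations rather than clones with an engineered change. The labels do not say whether the libraries of a group came from separate cultures, although the study's legends call them biological replicates. The p-values measure the spread between these libraries.

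EHF, ELF3 and ELF5 are ETS transcription factors of the epithelium-specific branch of that family, and ELF5 is known in the mammary gland for driving the differentiation of secretory alveolar cells. The grainyhead-like factors GRHL1, GRHL2 and GRHL3 maintain epithelial junctions and barriers, KLF5 is a zinc-finger factor of proliferating epithelium, and OVOL1 is a zinc-finger repressor that holds cells in an epithelial state. ESRP1 and ESRP2 are RNA-binding proteins that set the epithelial pattern of alternative splicing, and they stand here as partners of these factors although they do not bind promoters.

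Totals per library ran from 23354461 to 55094630 counts. Within the treated 4T1 group, replicates 1 and 2 differed less from each other than did any other pair of libraries of a group. Their counts were therefore averaged and they stand for 1 sample, with n = 2 in that group and 17 libraries in the fit. A normalized count is a count divided by the library size after TMM scaling and multiplied by the mean of these sizes over the libraries. The identifiers of the 4T1R1 libraries form a number series of their own, apart from that of 4T1 and 4T1R2. If that series marks a technical batch, which the labels do not say, what sets 4T1R1 apart from 4T1 cannot be told apart from it, except where 4T1R2 shows it as well. All 6 epithelial markers (Epcam, Cdh1, Krt7, Krt8, Krt18 and Krt19) were detected in every group. Their summed normalized count was 76164 to 77557 in the 4T1 libraries and 51351 to 62805 in the resistant ones. Within that sum Cdh1 ran from 10154 to 11324 in the 4T1 libraries and from 10921 to 14104 in the resistant ones. Of the markers of other cells, Lum had no count, and Adgre1, Kdr and Krt5 had none in the untreated libraries. The summed level of 4 endothelial markers was at most 17.6. The mesenchymal list summed to 400 to 771 normalized counts in the 4T1 libraries and 713 to 1043 in the resistant ones, nearly all of it Pdgfra. The basal list summed to 117 to 207 and 194 to 458, mostly Krt14, and the immune list to 145 to 208 and 204 to 243, mostly Cd68. The ranges of each of these 3 lists lay higher in the resistant libraries and overlapped at their ends, and their part in the results was not tested.

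Ehf had 0 counts in every 4T1 library, treated or not, and between 743 and 1960 normalized counts in the resistant libraries. Untreated 4T1R1 libraries had 1456, 1399 and 1408 normalized counts of Ehf, and untreated 4T1R2 libraries had 1853, 1960 and 1608. With 17-DMAG the 4T1R1 libraries had 792, 761 and 743, and the 4T1R2 libraries 1334, 1429 and 1327. The 12 resistant libraries thus all lay far above the 4T1 libraries, and in both populations the treated libraries lay below the untreated ones without overlap. Ordered by mean level, the groups ran from untreated 4T1R2 through untreated 4T1R1 and treated 4T1R2 to treated 4T1R1, and of these neighbours only the middle pair overlapped. Against a floor of 3 counts in each 4T1 library, the bound on the mean excess of Ehf was 461-fold in untreated 4T1R1 and 587-fold in untreated 4T1R2. The floor is a set value. A count appears to be a read and not a fragment, so a count of 0 may allow more than 3, and a higher floor would lower the bounds. The untreated differences are those by which Ehf was chosen. The data are from bulk RNA, in which a larger share of cells with Ehf and more Ehf RNA per cell cannot be told apart. Ehf lies on the minus strand of chromosome 2 at chr2:103263433-103303278 (GRCm38).

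The treated libraries were not used in that choice. In them Ehf in 4T1R1 exceeded Ehf in 4T1 at least 271-fold and Ehf in 4T1R2 did so at least 482-fold. No p is given for these bounds, since Ehf was at 0 in 4T1 and passed the filter on low counts only through the resistant libraries. With 17-DMAG, Ehf was higher in 4T1R2 than in 4T1R1 by 0.83 ± 0.0644 (SE) on the log2 scale (edgeR's quasi-likelihood test, adjusted p = 2.13e-13). Without drug the difference was 0.35 ± 0.0605, as a description.

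**Figure D1:**
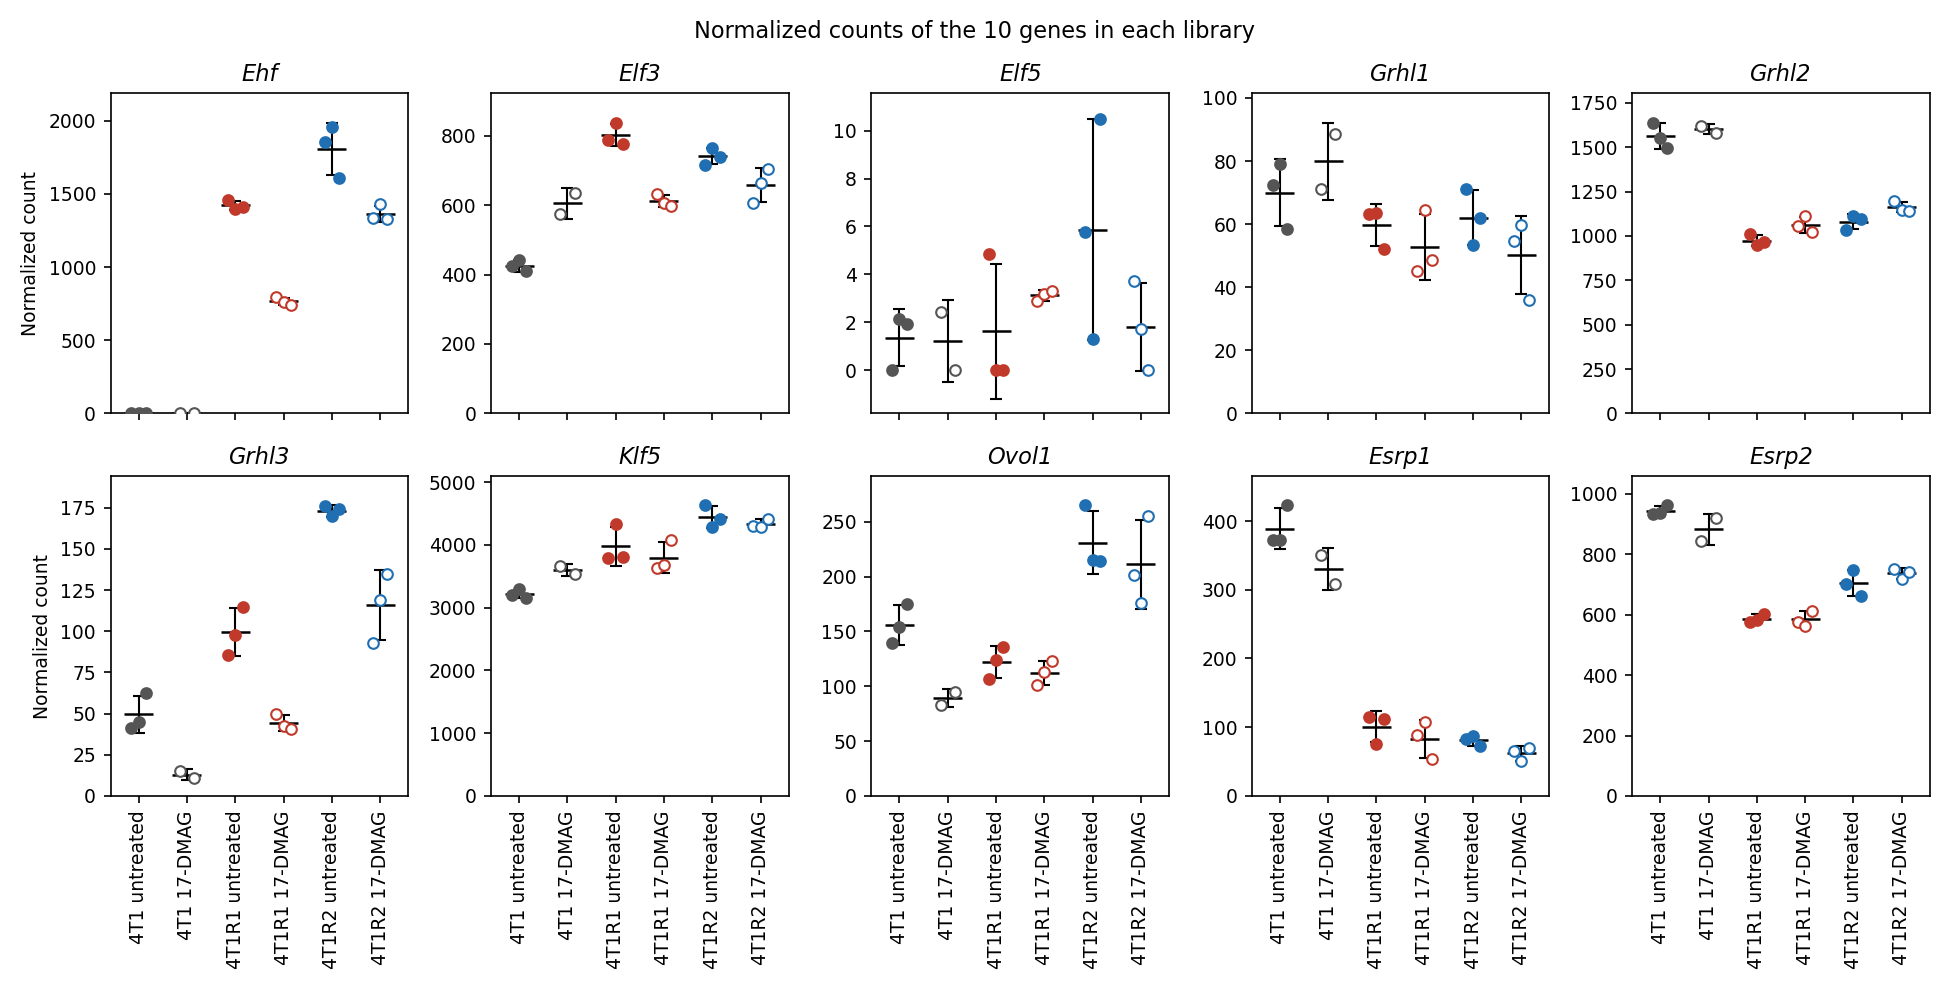
Normalized counts (y axis, each gene on its own scale) of the 10 genes in the 6 groups (x axis). Filled points are untreated libraries, open points are 17-DMAG-treated libraries, and the black bar and whiskers are the mean and SD (n = 3, or 2 for treated 4T1). Ehf is at 0 in 4T1 and at 743 to 1960 in the resistant libraries, whereas Esrp1 is at 308 to 423 in 4T1 and at most 115 in the resistant ones.

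Elf3 was the other ETS factor of this branch with an appreciable level. It had 424, 442 and 410 normalized counts in untreated 4T1, 789, 838 and 777 in untreated 4T1R1, and 717, 764 and 740 in untreated 4T1R2. The untreated resistant libraries were all above the untreated 4T1 libraries. With 17-DMAG the levels drew together, at 574 and 636 in 4T1, 633, 607 and 599 in 4T1R1, and 606, 664 and 704 in 4T1R2, and the groups overlapped. Elf5, the neighbour of Ehf on chromosome 2, was barely present. Its highest library held 9 counts, an untreated 4T1R2 library at 10.5 normalized counts, and it did not pass the filter on low counts, so no test was made for it.

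The 3 grainyhead-like genes had different patterns. Grhl3 was the most variable of them, at 41.4, 44.9 and 62.4 normalized counts in untreated 4T1, 85.7, 98 and 115 in untreated 4T1R1, and 176, 170 and 174 in untreated 4T1R2. With 17-DMAG it stood at 15.3 and 10.8 in 4T1, 49.9, 42.3 and 40.9 in 4T1R1, and 92.7, 119 and 135 in 4T1R2. Among the untreated groups and among the treated groups, Grhl3 was lowest in 4T1 and highest in 4T1R2, with no overlap between populations. Grhl2 ran the other way, with 1495 to 1639 normalized counts in the untreated 4T1 libraries, 947 to 1009 in untreated 4T1R1 and 1034 to 1111 in untreated 4T1R2. Grhl1 was low throughout, between 36.1 and 88.6, and its untreated groups overlapped.

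Klf5 was the most abundant member in every group, at 3157 to 3293 normalized counts in untreated 4T1, 3795 to 4334 in untreated 4T1R1 and 4284 to 4634 in untreated 4T1R2. Ovol1 had 139, 154 and 175 normalized counts in untreated 4T1, 107, 124 and 136 in untreated 4T1R1, and 265, 215 and 214 in untreated 4T1R2. Its mean was thus on opposite sides of 4T1 in the 2 resistant populations. The exons of Ovol1 share 766 bases with Gm31166 and AC126029.1 on the other strand, the most of any member, and without strand in the counting their reads cannot be told apart there. The same limit applies to 162 exon bases that Elf3 shares with Gm26642, 169 that Grhl2 shares with Gm16136 and 127 that Esrp1 shares with Gm26663.

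Both splicing regulators were lower in the resistant cells. Esrp1 had 373, 372 and 423 normalized counts in untreated 4T1, against 115, 75.1 and 112 in untreated 4T1R1 and 83.4, 87.4 and 72.5 in untreated 4T1R2. Esrp2 had 933 to 962 in untreated 4T1, 576 to 602 in untreated 4T1R1 and 662 to 749 in untreated 4T1R2. Neither gene had a resistant library that reached the 4T1 range.

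Levels can be compared between genes per length, as RPKM computed from the counts (reads per kb of annotated exon, scaled by library size). In untreated 4T1 the order was Klf5 (20), Esrp2 (7.02), Elf3 (6.19), Grhl2 (5.85), Esrp1 (1.99), Ovol1 (1.44), Grhl3 (0.574) and Grhl1 (0.408), with Elf5 at 0.00749 and Ehf at 0. In untreated 4T1R2 Ehf stood at 10.5 ± 1.04 (SD, n = 3) on this scale beside Elf3 at 10.8 ± 0.341. In untreated 4T1R1 Ehf stood at 8.23 ± 0.178 (SD, n = 3), and Elf3 at 11.7 ± 0.473. Ehf thus went from no count to a level near that of Elf3 and above Esrp2 and Grhl2. These lengths are those of all annotated exons of a gene, and a shorter expressed isoform would raise its value.

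In the untreated comparison of 4T1R1 with 4T1, the counts past an adjusted p of 0.05, as a description of the genes chosen, were 4 of 9 members upward and 4 downward, where 25.2% of all 13507 tested genes were past it upward and 27.5% downward. In the untreated comparison of 4T1R2 with 4T1, the counts were 5 and 3, against 25.6% and 26.9% of all tested genes. The log2 fold changes, as a description, were 0.91 and 0.80 for Elf3, 1.00 and 1.80 for Grhl3, 0.30 and 0.47 for Klf5, -0.35 and 0.58 for Ovol1, -0.68 and -0.53 for Grhl2, -1.94 and -2.26 for Esrp1, and -0.69 and -0.42 for Esrp2, in 4T1R1 and 4T1R2 respectively. Both comparisons use the same 3 untreated 4T1 libraries. The Ovol1 value in 4T1R1 lay near the threshold. It was no longer past it without untreated 4T1 replicate 2 or 3 or untreated 4T1R1 replicate 1 or 2 (-0.26 to -0.36), nor by DESeq2, with total-count scaling, with a minimum of 10 counts or in a fit of only the groups compared (-0.32 to -0.35).

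The sequence before the start is shown for Elf3 and Grhl3, from RefSeq (GRCm38.p6), because both changed after 17-DMAG in 4T1, in opposite directions. RefSeq promoters were matched for 4 of the 10 members. Each window ends at the base before the outermost annotated start, which is position -1, and both genes are on the minus strand, so the sequences read 5′ to 3′ towards the gene. Elf3 is shown from chr1:135258569-135258722 and Grhl3 from chr4:135573633-135573882. Capitals mark matches on either strand to CACCTG, the E-box of ZEB and SNAI repressors, to CCNCNCCC, a KLF-type core, and to the NF-κB consensus.
Elf3: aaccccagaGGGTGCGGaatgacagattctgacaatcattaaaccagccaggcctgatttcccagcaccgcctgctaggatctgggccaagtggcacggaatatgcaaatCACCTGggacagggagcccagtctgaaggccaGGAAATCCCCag
Grhl3: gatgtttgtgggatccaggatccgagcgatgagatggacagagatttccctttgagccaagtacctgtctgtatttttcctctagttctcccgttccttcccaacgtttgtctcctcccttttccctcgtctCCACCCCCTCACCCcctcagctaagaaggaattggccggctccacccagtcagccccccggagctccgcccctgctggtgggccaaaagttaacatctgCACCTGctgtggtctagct

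The Elf3 window of 154 bases held CACCTG once, at -44 to -39. Its outermost annotated start lies upstream of its RefSeq start, so the window does not reach the RefSeq start. The 32851 promoters searched were cut alike, to the 154 bases farthest from the RefSeq start among the 250 before it. Of these windows 11.1% held CACCTG. It also held 1 match to the NF-κB consensus, at -12 to -3, which 2.36% of those windows held, and 1 match to CCNCNCCC, which 27.1% held. The Grhl3 window of 250 bases held CACCTG once, at -19 to -14 (17.2% of promoters in a window of that length), and 2 overlapping matches to CCNCNCCC (45.9%). Neither window held AACCGGTT, the grainyhead motif, CCGGAAG, an ETS motif, TGANTCA, the AP-1 motif, or TATAAA. CG dinucleotides numbered 3 in the Elf3 window and 8 in the Grhl3 window, against medians of 3 and 6 in the same windows of all promoters. These matches describe the letters of the windows, and binding was not measured.

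With all populations treated, the comparison with 4T1 uses libraries that did not enter the choice of Ehf. They come from the same populations as the untreated libraries that did, and the other members were chosen with earlier results of these data known. In 4T1R1, 2 of the 9 tested members were higher (Grhl3, and Ehf, which had to differ once it passed the filter) and 4 were lower (Grhl1, Grhl2, Esrp1 and Esrp2), where 25.1% of all tested genes were called higher and 27.6% lower. In 4T1R2, 4 were higher (Ehf, Grhl3, Klf5 and Ovol1) and the same 4 genes were lower, where 25.8% of all tested genes were called higher and 28.0% lower. Both comparisons share the treated 4T1 libraries. The libraries of the groups did not overlap for 7 of the 9 tested members in 4T1R1 and for 8 in 4T1R2, where 69.0% and 68.5% of all tested genes did not overlap.

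Grhl3 was 3.32-fold higher in treated 4T1R1 than in treated 4T1, a log2 fold change of 1.73 ± 0.317 (SE), and 8.61-fold higher in treated 4T1R2, a log2 fold change of 3.11 ± 0.277. Both passed edgeR's quasi-likelihood test (adjusted p = 1.24e-05 and 1.17e-12), although the treated 4T1 libraries held few reads of Grhl3, between 10 and 20 counts before averaging. Ovol1 was higher in treated 4T1R2 by 1.24 ± 0.17 on the log2 scale (adjusted p = 5.21e-08) and differed by 0.34 ± 0.183 in treated 4T1R1, which did not pass the test (adjusted p = 0.122). The Klf5 difference was 0.27 ± 0.0483 in treated 4T1R2 (adjusted p = 8.07e-06) and 0.08 ± 0.0487 in treated 4T1R1 (adjusted p = 0.186). Elf3 differed by 0.02 ± 0.0783 and 0.12 ± 0.0771 (adjusted p = 0.825 and 0.176), with 95% intervals from -0.13 to 0.18 in 4T1R1 and from -0.03 to 0.28 in 4T1R2.

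Esrp1 showed the largest decrease among the members tested in these comparisons. Treated 4T1 libraries had 351 and 308 normalized counts, treated 4T1R1 libraries 88.2, 107 and 53.1, and treated 4T1R2 libraries 64.9, 50.2 and 70.4. Every resistant library was below both 4T1 libraries, with log2 fold changes of -1.99 ± 0.173 (SE) in 4T1R1 and -2.42 ± 0.177 in 4T1R2 (edgeR, adjusted p = 6e-13 and 3.05e-15). Esrp2 was lower by less, at -0.59 ± 0.0712 in 4T1R1 (adjusted p = 2.81e-09) and -0.26 ± 0.0693 in 4T1R2 (adjusted p = 0.00177). The exons of Esrp2 share 338 bases with those of Nfatc3 and 1810019D21Rik on the other strand, and whether the counting used strand is not given in the sources used here. Without treated 4T1 replicate 3 the Esrp2 difference in 4T1R2 was -0.19 and no longer passed (adjusted p = 0.0729).

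Grhl2 was lower by 0.59 and 0.46 on the log2 scale in treated 4T1R1 and 4T1R2, with changes of -0.59 ± 0.0578 and -0.46 ± 0.0569 (edgeR, adjusted p = 1.51e-11 and 4.6e-09). Treated 4T1 had 1621 and 1581 normalized counts of Grhl2, against 1023 to 1112 in treated 4T1R1 and 1143 to 1197 in treated 4T1R2. Grhl1 was lower too, at -0.59 ± 0.245 and -0.66 ± 0.242 (adjusted p = 0.0403 and 0.021), from much lower levels. The Grhl1 call was lost in 4T1R1 without treated 4T1R1 replicate 1 or 3 (-0.48 and -0.54) or treated 4T1 replicate 3 (-0.43) and by DESeq2 (-0.58, adjusted p = 0.0768), and in 4T1R2 without treated 4T1R2 replicate 3 (-0.47) or treated 4T1 replicate 3 (-0.49). The summed epithelial markers were also lower in the resistant libraries, as given above, but not every marker was. With all cells treated, 1 of the 6 was higher and 5 were lower in 4T1R1, and 1 was higher and 4 were lower in 4T1R2. The shares of all tested genes were 25.1% higher and 27.6% lower in 4T1R1, and 25.8% and 28.0% in 4T1R2. The higher marker in 4T1R2 was Cdh1, by 0.42 ± 0.0306 (SE) on the log2 scale. The part of these markers in the differences of the members was not tested.

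**Figure D2:**
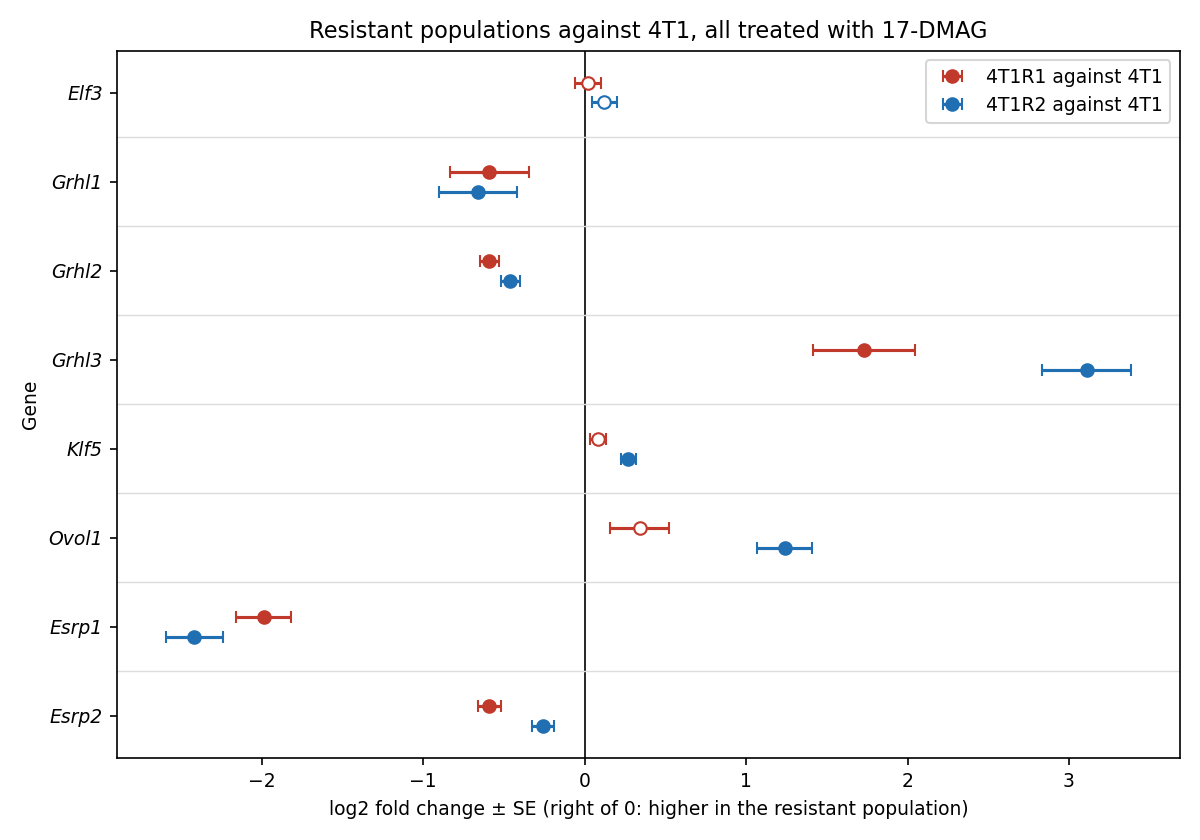
log2 fold change with SE (x axis) of 8 members (y axis) between 17-DMAG-treated resistant cells and 17-DMAG-treated 4T1, 4T1R1 in red and 4T1R2 in blue. Filled points passed an adjusted p of 0.05 in edgeR's quasi-likelihood test. Ehf is left out because 4T1 had 0 counts, and Elf5 because it was not tested. Grhl3 lies farthest to the right, at 1.73 and 3.11, and Esrp1 farthest to the left, at -1.99 and -2.42.

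When libraries were scaled by total counts alone, the median of all tested genes shifted by 0.176 in the treated comparison of 4T1R1 with 4T1, by -0.116 in the response of 4T1 to 17-DMAG and by 0.15 in the difference between the responses of 4T1R1 and 4T1. The shares of genes called then changed to 42.9% higher and 13.8% lower in treated 4T1R1 against 4T1, and to 34.0% and 20.5% in treated 4T1R2. With that scaling Elf3 (0.20), Klf5 (0.25) and Ovol1 (0.51) were also called higher in treated 4T1R1, against that median shift of 0.176, while Grhl1 (-0.42) was not called. In treated 4T1R2 Elf3 was called higher too (0.213, adjusted p = 0.0209 in edgeR's test), against a median shift of 0.088.

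The resistant populations differed from each other in several members. Without drug, 6 (Ehf, as a description, among them) of the 9 tested members were higher in 4T1R2 than in 4T1R1 and 0 were lower by edgeR (0 at an unadjusted p under 0.05 and 0 by DESeq2), where 19.7% of all tested genes were called higher and 19.0% lower. With 17-DMAG the same 6 genes, Ehf, Grhl2, Grhl3, Klf5, Ovol1 and Esrp2, were higher and 0 were lower by edgeR (1 at an unadjusted p under 0.05 and 0 by DESeq2), where 22.7% and 21.3% of all tested genes were called, or 13.3% and 32.1% when scaled by total counts. Grhl3 was higher in 4T1R2 by 0.80 ± 0.171 (SE) on the log2 scale without drug (edgeR, adjusted p = 0.000216) and by 1.37 ± 0.197 with it (adjusted p = 2.39e-07). Ovol1 was higher by 0.92 ± 0.145 and 0.91 ± 0.147 (adjusted p = 1.77e-06 and 2.42e-06). The other differences were small. They were 0.16 and 0.19 for Klf5, 0.26 and 0.34 for Esrp2, and 0.15 and 0.13 for Grhl2. Without drug the Klf5 libraries of the 2 populations overlapped, and those of the other 5 genes did not. The Grhl2 call was lost when any of several libraries was left out, with values of 0.13 to 0.14 without untreated 4T1R1 replicate 2 or 3 or untreated 4T1R2 replicate 2 or 3, and of 0.10 to 0.14 without treated 4T1R1 replicate 1 or 3 or any treated 4T1R2 replicate. It was also lost without a filter (0.14 without drug and 0.13 with it), without drug in a fit of only the groups compared (0.15), and with drug by DESeq2 (0.13) and with total-count scaling (0.042, adjusted p = 0.556). Elf3 differed by -0.12 and 0.10, Grhl1 by 0.07 and -0.06 and Esrp1 by -0.32 and -0.43 without and with drug, and none of these passed (adjusted p = 0.0711 to 0.854). The Esrp1 difference passed the test without untreated 4T1R1 replicate 2 (-0.49), without treated 4T1R1 replicate 3 (-0.66) and without treated 4T1R2 replicate 3 (-0.535). The separate number series of the 4T1R1 libraries bears on all of these differences.

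The response to 17-DMAG was compared within each population. In 4T1, 2 of the 8 members that could be tested were higher after the drug (Elf3 and Klf5) and 2 were lower (Grhl3 and Ovol1), where 18.4% of all tested genes were called higher and 17.9% lower, or 8.83% and 32.0% when scaled by total counts. In 4T1R1, 0 of 9 were higher by edgeR (1 at an unadjusted p under 0.05 and 0 by DESeq2) and 3 were lower (Elf3, Grhl3 and, as a description, Ehf), where 13.9% and 14.3% of all tested genes were called, or 17.4% and 9.74% when scaled by total counts. In 4T1R2, 0 of 9 were higher by edgeR (0 at an unadjusted p under 0.05 and 0 by DESeq2) and 2 were lower (Grhl3 and, as a description, Ehf), where 6.18% and 4.35% of all tested genes were called, or 2.72% and 8.48% when scaled by total counts. At 0 counts in both groups, Ehf gave no response in 4T1.

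Ehf was lower after 17-DMAG in both resistant populations, given as a description because the untreated libraries are those whose high Ehf level led to its choice. In 4T1R1 its mean went from 1421 ± 30.7 to 765 ± 25 normalized counts (SD, n = 3 each), a log2 fold change of -0.89 ± 0.0645 (SE). In 4T1R2 it went from 1807 ± 180 to 1363 ± 57 (SD, n = 3 each), a log2 fold change of -0.41 ± 0.0604. The treated libraries were below the untreated ones in 3 of 3 libraries in each population. The lowest treated resistant library had 743 normalized counts.

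Grhl3 fell in all 3 populations, by 1.89 ± 0.311 (SE) on the log2 scale in 4T1, by 1.16 ± 0.201 in 4T1R1 and by 0.58 ± 0.167 in 4T1R2 (edgeR, adjusted p = 3.78e-06, 2.03e-05 and 0.017). No treated library reached the untreated ones of its own population. The difference between the responses of 4T1R2 and 4T1 was 1.31 ± 0.361 (adjusted p = 0.00802), a smaller fall in 4T1R2, and it was 1.12 without treated 4T1 replicate 3, where it did not pass (adjusted p = 0.0846). The difference between 4T1R1 and 4T1 was 0.73 ± 0.385 and did not pass (adjusted p = 0.206). In 4T1R2 the fall no longer passed without untreated replicate 1 (-0.57) or 3 (-0.58) or treated replicate 1 (-0.45).

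Elf3 responded in opposite directions. It rose in 4T1 by 0.51 ± 0.0807 (SE) on the log2 scale (edgeR, adjusted p = 2.23e-06) and fell in 4T1R1 by 0.39 ± 0.0687, a log2 fold change of -0.39 (adjusted p = 3.11e-05). In 4T1R2 the change was -0.17 ± 0.0688 and did not pass (adjusted p = 0.115), although it did with total-count scaling (-0.215, adjusted p = 0.0391). The responses of 4T1R1 and 4T1 differed by -0.89 ± 0.106 (adjusted p = 2.3e-08), and those of 4T1R2 and 4T1 by -0.68 ± 0.106 (adjusted p = 5.18e-06). Both differences contain the response of 4T1 and so share its libraries. They also contain the untreated differences from 4T1 (0.91 and 0.80), which were known when the genes were chosen and are given only as a description. These p-values carry that limit, and so do those for the differences of response of the other members.

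Ovol1 and Klf5 were called in 4T1 and not in the resistant populations. Ovol1 fell in 4T1 by 0.81 ± 0.176 (SE) on the log2 scale (edgeR, adjusted p = 0.000251), from 139, 154 and 175 normalized counts to 83.3 and 95. In 4T1R1 and 4T1R2 its change was -0.13 ± 0.157 and -0.15 ± 0.136, and the libraries overlapped. The difference of response was 0.69 ± 0.237 for 4T1R1 and 0.67 ± 0.223 for 4T1R2 (adjusted p = 0.0365 and 0.0305). Klf5 rose in 4T1 by 0.16 ± 0.0489 (adjusted p = 0.00791), which was 0.045 and not called when libraries were scaled by total counts. Its changes in 4T1R1 and 4T1R2 were -0.07 ± 0.0434 and -0.04 ± 0.0429, and the differences from the response of 4T1 were -0.23 ± 0.0654 and -0.20 ± 0.065 (adjusted p = 0.0106 and 0.0292). With total-count scaling these were -0.077 and -0.127 and neither was called (adjusted p = 0.429 and 0.187). In all, 1 of 8 members had a higher response in 4T1R1 than in 4T1 and 2 a lower one, where 9.16% and 9.08% of all tested genes were called, or 26.2% and 3.10% when scaled by total counts. For 4T1R2, 2 had a higher response and 2 a lower one, where 9.62% and 8.16% of all tested genes were called, or 15.5% and 4.67% when scaled by total counts.

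Without 1 library at a time, the Ovol1 difference of response kept its direction but was not called in several cases. For 4T1R1 it was 0.59 to 0.78 and not called without 4T1R1 untreated replicate 1, treated replicate 2 or 3, 4T1 untreated replicate 3 or treated replicate 2 or 3. For 4T1R2 it was 0.51 to 0.62 and not called without 4T1 untreated replicate 3, 4T1R2 untreated replicate 2 or 3, or 4T1R2 treated replicate 3. The Klf5 difference for 4T1R2 was -0.17 to -0.21 and not called without 4T1 untreated replicate 3 or treated replicate 3, 4T1R2 untreated replicate 1, or 4T1R2 treated replicate 1 or 2.

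Grhl1, Grhl2, Esrp1 and Esrp2 had no call after 17-DMAG in any population. With total-count scaling, edgeR's test called Esrp2 in 4T1 (-0.216, adjusted p = 0.0125) and Grhl2 in 4T1R1 (0.158, adjusted p = 0.0287). The 95% interval of the Grhl2 log2 fold change ran from -0.07 to 0.15 in 4T1, from 0.02 to 0.23 in 4T1R1 and from 0.00 to 0.21 in 4T1R2, and that of Esrp2 from -0.24 to 0.03, -0.14 to 0.12 and -0.06 to 0.19. The intervals of Esrp1, from -0.53 to 0.06, -0.64 to 0.07 and -0.79 to -0.00 in the same order, were wider. All 95% intervals here are normal intervals from the SE.

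**Figure D3:**
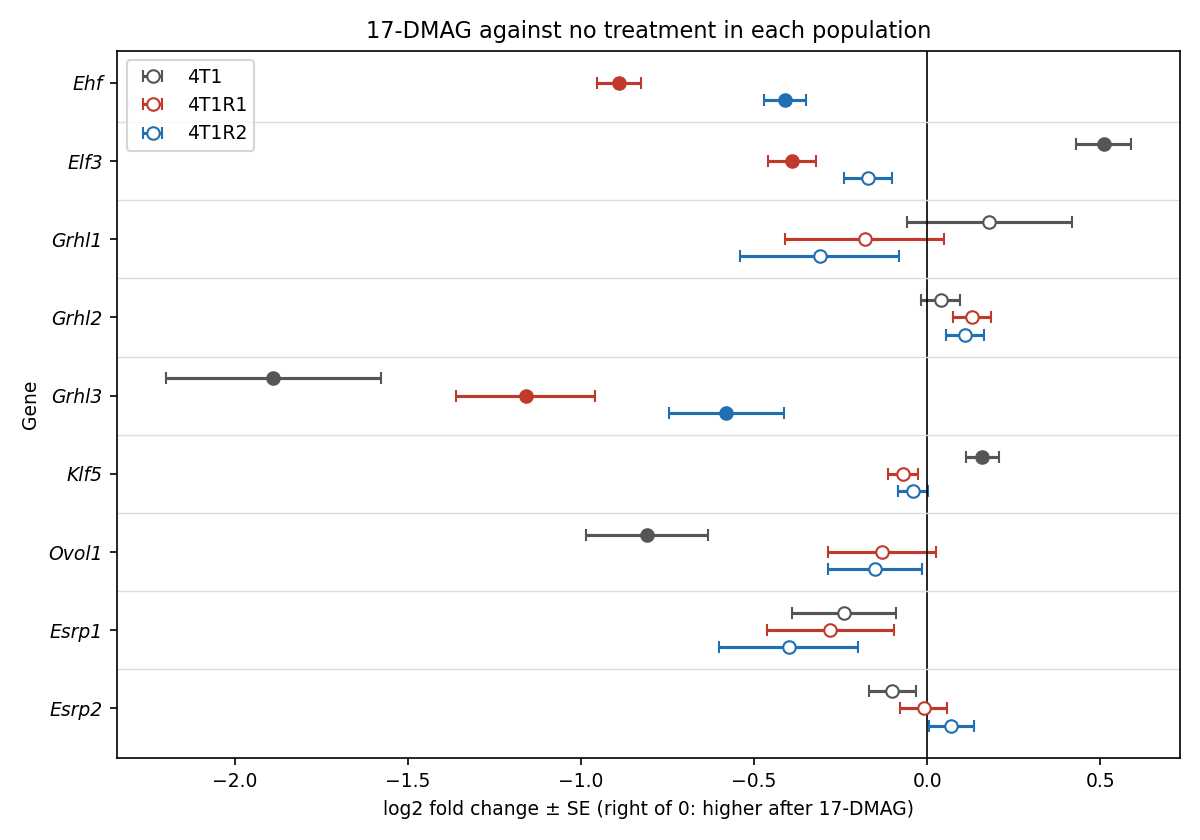
log2 fold change with SE (x axis) after 17-DMAG in 4T1 (grey), 4T1R1 (red) and 4T1R2 (blue) for the 9 tested members (y axis). Filled points passed an adjusted p of 0.05 in edgeR's quasi-likelihood test. Grhl3 lies left of 0 in all 3 populations, at -1.89, -1.16 and -0.58, and Elf3 lies at 0.51 in 4T1 and at -0.39 in 4T1R1. Ehf has no point in 4T1, where it had 0 counts, and its other points are a description.

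The genes around Ehf were examined for the same pattern. Within 500 kb of Ehf, measured between the gene bodies, the count table lists 11 genes, of which 8 were tested. With all cells treated, 4 of these were higher and 4 lower in 4T1R1 than in 4T1, and 3 were higher and 3 lower in 4T1R2, where 25.1% and 27.6% of all tested genes were called in the first comparison and 25.8% and 28.0% in the second. Their log2 fold changes ran from -0.34 to 2.29 and from -0.25 to 3.11. The highest was Slc1a2, a glutamate transporter, which had at most 28 counts in a library, with means of 2.41 normalized counts in treated 4T1, 13.8 in treated 4T1R1 and 24.4 in treated 4T1R2. Abtb2 was higher in both, by 0.66 and 0.81 (edgeR, adjusted p = 1.4e-08 and 5.61e-11), with a start 263 kb from that of Ehf. Cd44, a surface receptor whose exons ESRP proteins are known to regulate, was lower by 0.24 and 0.25 (changes of -0.24 and -0.25), at 17770 to 21153 normalized counts. A930006I01Rik and BC016548, the genes with the nearest annotated starts, had no count.

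**Figure D4:**
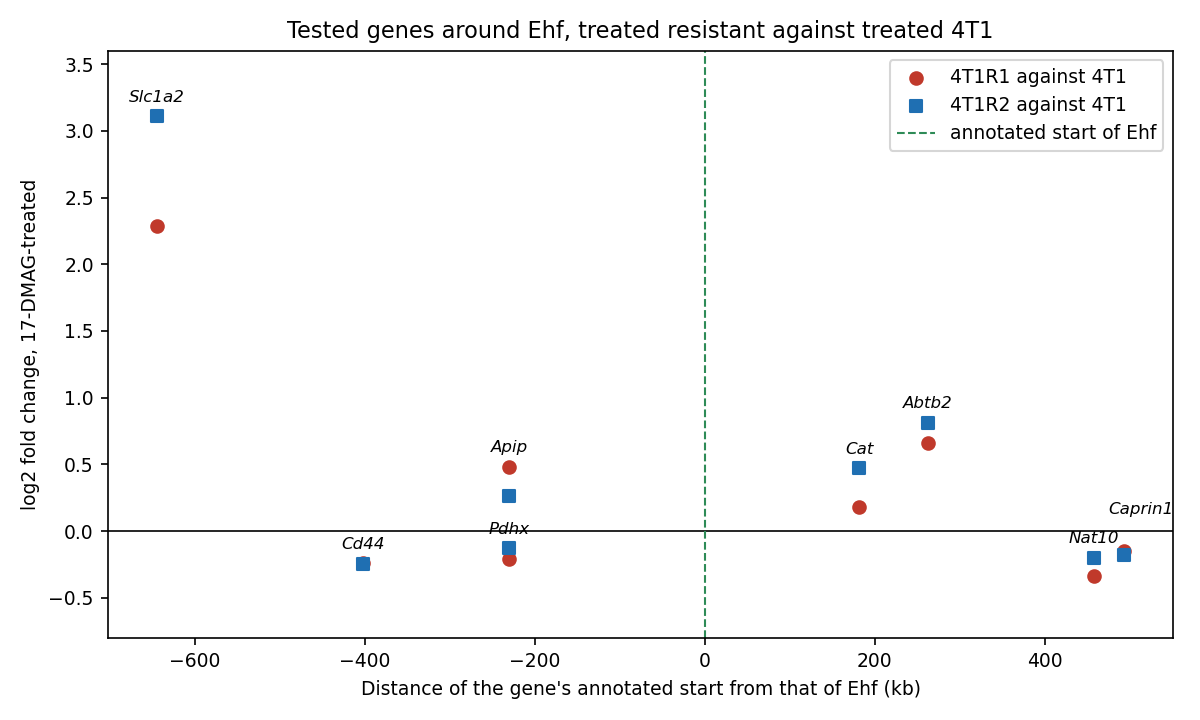
log2 fold change between 17-DMAG-treated resistant cells and 17-DMAG-treated 4T1 (y axis) of the 8 tested genes within 500 kb of Ehf, against the distance in kb of their annotated starts from that of Ehf (x axis), 4T1R1 as red circles and 4T1R2 as blue squares. Slc1a2, at 2.29 and 3.11, rests on few reads, and the others lie between -0.34 and 0.81.

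Of 10638 genes compared, those with levels most like Ehf over the 17 libraries, by Pearson's r on log2 of the normalized count + 1, were Gas7 (0.9963), Gng2 (0.9963), Pou2f2 (0.9934), Tgfbr3 (0.9933) and Saa3 (0.9929). These libraries fall into the 4T1 libraries at 0 and the resistant libraries, so r mostly reflects that split, and it is a description. Gas7 had 8.5 ± 1.82 (SD, n = 3) normalized counts in untreated 4T1, 586 ± 13.6 in untreated 4T1R1 and 605 ± 77.1 in untreated 4T1R2. Tgfbr3, the type III receptor for TGF-β, had 231 ± 25.8, 1417 ± 84.6 and 1669 ± 60.7 (SD, n = 3 each). Saa3, an acute-phase protein, had at most 5 counts in any 4T1 library and means of 117 in both untreated resistant populations. Unlike Ehf, all 5 had counts in 4T1.

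Between treated resistant cells and treated 4T1, the other ETS factors named here differed less than Ehf, and Ets2 and Etv6 differed more than Elf3. Of 23 listed, 16 were tested, and with all cells treated 7 were higher and 3 lower in 4T1R1 than in 4T1, and 9 were higher and 4 lower in 4T1R2 (median log2 fold changes of 0.11 and 0.14). Ets2 was higher by 0.48 ± 0.0469 (SE) in 4T1R1 and by 1.16 ± 0.0461 in 4T1R2 (edgeR, adjusted p = 1.34e-11 and 7.1e-24), and Etv6 by 0.73 ± 0.0463 and 0.59 ± 0.0462. After 17-DMAG, 8 of the 16 fell and 1 rose in 4T1, 6 fell and 1 rose in 4T1R1, and 2 fell in 4T1R2. Erf, an ETS repressor, and Etv1 fell in all 3 populations. The lists in this and the following paragraphs were chosen with results of these data known. In the treated comparison, 25.1% of all tested genes were called higher and 27.6% lower in 4T1R1, and 25.8% and 28.0% in 4T1R2. After 17-DMAG, 18.4% rose and 17.9% fell in 4T1, 13.9% and 14.3% in 4T1R1, and 6.18% and 4.35% in 4T1R2.

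Factors of the epithelial-mesenchymal transition, which oppose several members, went both ways. Of 10 transcription factors of the epithelial-mesenchymal transition, 8 were tested, and with all cells treated 3 were higher and 4 lower in 4T1R1 than in 4T1 and 2 were higher and 3 lower in 4T1R2. The shares of all tested genes were 25.1% higher and 27.6% lower in 4T1R1, and 25.8% and 28.0% in 4T1R2. Twist1 was lower, with 335 ± 5.38 normalized counts in treated 4T1, 216 ± 13.4 in treated 4T1R1 and 81.4 ± 21.2 in treated 4T1R2 (SD, n = 2, 3 and 3), log2 fold changes of -0.63 ± 0.135 and -2.04 ± 0.149 (SE). Snai1 was higher, by 0.41 ± 0.118 and 0.59 ± 0.116, and Foxc2 by 1.01 ± 0.114 and 1.27 ± 0.111. Zeb2 was higher by 0.35 ± 0.053 in 4T1R1. Tcf4 was lower in 4T1R2, with a log2 fold change of -0.17 ± 0.0432. The other genes called lower in 4T1R1 are not named here. After 17-DMAG Foxc2 changed by -0.95 ± 0.114 in 4T1 and by -0.26 ± 0.0905 in 4T1R1. Of 5 relatives of the grainyhead-like and OVOL genes, 2 were tested, with 0 called by edgeR in either comparison (1 higher in 4T1R1 and 1 lower in 4T1R2 at an unadjusted p under 0.05).

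Of 20 other mammary epithelial factors 16 were tested, and 11 were higher and 1 lower in treated 4T1R1 than in treated 4T1, and 12 were higher and 2 lower in 4T1R2 (median log2 fold changes of 0.40 and 0.75). In these comparisons 25.1% of all tested genes were called higher and 27.6% lower in 4T1R1, and 25.8% and 28.0% in 4T1R2. The list was chosen with results known, so its counts are a description. Sox9 was higher by 0.73 ± 0.046 (SE) and 1.08 ± 0.0454 and Hes1 by 1.13 ± 0.0774 and 1.45 ± 0.0759. These genes fell after 17-DMAG in 4T1, Sox9 from 3768 ± 33 to 1530 ± 96.4 and Hes1 from 873 ± 37.5 to 413 ± 40.1 normalized counts (SD, n = 3 and 2). Without drug, Sox9 stood at 3244 ± 161 in 4T1R1, below untreated 4T1, and at 3908 ± 27.8 in 4T1R2 (SD, n = 3 each). Untreated 4T1R1 had 1090 ± 29.3 normalized counts of Hes1 (SD, n = 3). Of 24 epithelial adhesion, junction and surface genes, 21 were tested. There 7 were higher and 11 lower in treated 4T1R1 than in treated 4T1, and 8 were higher and 8 lower in 4T1R2. Prom2 was lower, with log2 fold changes of -3.39 ± 0.154 and -1.93 ± 0.129, whereas Evpl, the cornified-envelope protein envoplakin, was higher by 1.75 ± 0.128 and 0.84 ± 0.133.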

How the data were processed

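RNA of 18 libraries was measured by sequencing after removal of ribosomal RNA, with a kit that marks strand. The authors aligned reads with STAR to mm10/GRCm38 and deposited unnormalized whole-number counts per gene symbol from featureCounts (Subread 1.6.2 per the submitters' processing notes). The use of strand and of reads with several matches is not given in the sources used here. Between 65.6% and 70.8% of counts from 1 to 12 were even, so a count appears to be a read and not a fragment. Ribosomal precursor Rn45s held 9.54% to 15.6% of a library's counts. Totals of 23354461 to 55094630 counts limit precision mainly for Elf5, Grhl1 and treated-4T1 Grhl3.

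Genes were filtered with filterByExpr (13507 kept), scaled by TMM and tested with edgeR 4.0.16 (R 4.3.3) by the quasi-likelihood test, with all 6 groups in 1 fit and Benjamini-Hochberg adjustment over all genes tested, at a threshold of 0.05. The SE of a log2 fold change is its size divided by the square root of the test's F statistic. The common biological coefficient of variation was 0.0376. The code was tested on simulated data. The averaging of treated 4T1 replicates 1 and 2 rested on a chi-square per gene of 1.1, against 2.04 to 2.22 in 17 other pairs of libraries. Groups at or under 3 counts in every library were given as bounds. Positions, exon lengths and overlaps came from GENCODE vM21 on GRCm38, and promoters from RefSeq.

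The members and gene lists were chosen with earlier results of these data known. Named genes of a list were up to 4 called genes with the largest change whose higher group averaged 100 normalized counts or more, of which some are given here. The genes most like Ehf were the 5 with the highest Pearson correlation among tested genes that averaged as much in any group, and its neighbours were all listed genes within 500 kb. Alternatives were RLE or total-count scaling, no filter, a minimum of 10 counts, DESeq2 1.42.0, only the groups compared, 18 separate libraries, a replicate block and each library left out. Some genes of the lists are not reported here. Figures were drawn with matplotlib 3.10.9.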

Additional observations from a re-analysis of the deposited data

Results flagged for a closer look

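The 7 results here are differences between the response of a resistant population to 17-DMAG and that of 4T1, on the log2 scale, that passed edgeR's quasi-likelihood test. For Elf3 the difference was -0.89 ± 0.106 (SE, adjusted p = 2.3e-08) in 4T1R1 and -0.68 ± 0.106 (adjusted p = 5.18e-06) in 4T1R2, since it rose in 4T1 and had negative changes in both resistant populations. For Ovol1 it was 0.69 ± 0.237 (adjusted p = 0.0365) and 0.67 ± 0.223 (adjusted p = 0.0305). For Klf5 it was -0.23 ± 0.0654 (adjusted p = 0.0106) and -0.20 ± 0.065 (adjusted p = 0.0292), neither of which passed with total-count scaling (-0.077 and -0.127). For Grhl3 it was 1.31 ± 0.361 (adjusted p = 0.00802) in 4T1R2. All 7 contain the response of 4T1, whose treated group has n = 2. All 7 also contain the untreated difference between the populations, which was known when the genes were chosen.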

How the results depend on the processing

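Of the counts of called members, those not named here stayed within 1.5 times the reported count under every alternative run. Scaling by total counts gave 5 members higher in treated 4T1R1 against treated 4T1 (2 reported), 1 lower in treated 4T1R2 against treated 4T1R1 (0 reported), 1 higher after 17-DMAG in 4T1 (2 reported) and 1 in 4T1R1 (0 reported). It gave 2 with a higher and 1 with a lower response in 4T1R1 than in 4T1 (1 and 2 reported), and 1 with a lower response in 4T1R2 (2 reported). It also turned the signs of 3 uncalled changes, to -0.079 for Grhl2 after 17-DMAG in 4T1, 0.026 for Esrp2 after 17-DMAG in 4T1R1 and 0.101 for Esrp1 in the response of 4T1R1 minus that of 4T1. A minimum of 10 counts in every library removes Ehf by its construction and gave 1 higher in treated 4T1R1 against 4T1 and 1 lower after 17-DMAG in 4T1R2. Without a filter 1 was lower in treated 4T1R2 against 4T1R1. DESeq2 gave 0 members with a higher response in 4T1R1 than in 4T1 (Ovol1, adjusted p = 0.0525). Where the construction does not show it, the cause was not tested.

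Leaving out 1 library at a time gave 0 to 1 members lower in 4T1R2 than in 4T1R1 without drug and 0 to 1 with it, 2 to 4 lower in treated 4T1R2 than in treated 4T1, 1 to 2 lower after 17-DMAG in 4T1R2, 0 to 1 with a higher response in 4T1R1 than in 4T1, 1 to 2 with a higher and 1 to 2 with a lower response in 4T1R2. Without treated 4T1 replicate 3 that group has 1 sample, assumed to vary like the others. Uncalled changes that turned sign ran from -0.041 to 0.163 for Grhl1 in untreated 4T1R2 against 4T1R1, from -0.211 to 0.120 with drug, from -0.001 to 0.10 for Elf3 in treated 4T1R1 against 4T1, from -0.000 to 0.073 for Grhl2 after 17-DMAG in 4T1, from -0.044 to 0.018 for Esrp2 after 17-DMAG in 4T1R1 and from -0.263 to 0.179 for Esrp1 in the response of 4T1R1 minus that of 4T1.

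Replicate numbers do not pair these libraries, since the deviations of same-numbered libraries had correlations of -0.044 to 0.045. With the replicate number as a block and 18 separate libraries, the replicate block left the members called at 4 higher and 4 lower (treated 4T1R2 against 4T1), and gave 3 higher in treated 4T1R1 against 4T1, where Ovol1 (0.36, adjusted p = 0.0468) was added, as it was with 18 separate libraries and no block (0.37). It changed no other call of a member. Depth limits Elf5, which had at most 9 counts.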
